A study of Mus musculus with 116 samples.

Results

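RNA of the mouse inner cell mass (ICM) was compared with RNA of late 2-cell embryos, gene by gene. The ICM is the inner group of cells of the blastocyst, and its 2 libraries were set against the 1 control library of late 2-cell embryos. A gene was a member of the comparison when its level was at least 10 FPKM in both ICM libraries or in the control, where FPKM counts sequenced fragments scaled by transcript length and by library total. Rows that shared a gene symbol were summed first. Of the 24028 symbols found in every table, 7464 met the rule. After 39 small RNAs and 60 replication-dependent histone genes were left out, 7365 genes remained. Of these, 2570 reached 10 FPKM on both sides, 1589 in the ICM alone and 3206 in the control alone. At the edge of the rule, Gm16973 had 10.0006 FPKM in the control and was a member, while Llgl1 had 9.99977 FPKM and was not. Among genes that depended on the ICM, Dmc1 entered with 10.0053 FPKM in its lower library and Rab24, at 9.99489 FPKM, did not.

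All embryos were wild-type, came from superovulated females 8 weeks old, and were bred from C57BL/6N females and PWK males. Control zygotes were taken 23 h after injection of hCG, which induces ovulation. They were kept in KSOM medium with 0.1% DMSO for 14 h and grown for a further 12 h after release, and about 100 of them gave 1 library of total RNA depleted of ribosomal RNA. Blastocysts for the ICM were harvested 98 h after hCG, and the ICM libraries were made by Smart-seq2, which primes on polyadenylated RNA. No drug is given for the ICM groups. The number of ICM per library, how the ICM was isolated, and whether the 2 replicates came from separate embryos is not stated, so the spread between them may be technical. For context, 4 further total RNA libraries of the same study, 1 each, were read beside the pair: MII oocytes (13 h), PN5 zygotes (30 h), early 2-cell embryos (36 h), and late 2-cell embryos of the mTBE group. The protocol names DMSO and 60 uM DRB, an inhibitor of RNA polymerase II elongation, as the alternatives for the late 2-cell embryos; from the group names, Con was read as DMSO and mTBE as DRB, with the same release and culture.

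Mouse embryos start with RNA stored by the oocyte, and most of it is destroyed around the 2-cell stage, when the embryonic genome is switched on. A burst of short-lived transcripts, many of them from young multicopy genes, marks that stage. By the blastocyst, an outer epithelium called trophectoderm surrounds the ICM, which holds the precursors of the epiblast, the founder of the body, and of the primitive endoderm, which forms the yolk sac.

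Stage and library protocol coincide in this pair and cannot be told apart. The control group has 1 library, so no p-value was computed, and a permutation of 2 libraries against 1 could not go below 0.333. Only very large contrasts were counted. A gene was called higher or lower when log2(FPKM + 1) differed from the control by at least 3, which is 8-fold on that scale, in each of the ICM libraries. By this rule 956 of the 7365 members (13.0%) were higher in the ICM and 1530 (20.8%) were lower. These percentages are the background for every list below. A member at 10 FPKM or more in the ICM alone could not be called lower, and one in the control alone could not be called higher. Such genes gave 724 of the higher and 1478 of the lower calls. A list's share therefore depends also on the side by which its genes became members, and the lists were chosen with earlier results known. Of the 2570 genes at 10 FPKM or more on both sides, 232 (9.03%) were higher and 52 (2.02%) were lower. The median difference was -0.63 over all members and 0.47 over those 2570. The ICM libraries differed from each other by 1 or more on the log2 scale in 219 members (2.97%), with a median absolute difference of 0.28, and by 3 or more in 3 members. The median difference between them is thus far smaller than the 8-fold rule. Just past that rule was Ndufa1, with a smaller difference of 3.00136, and just short of it Ogfod3, with 2.9991.

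The balance of higher and lower calls depended on scaling. With the median member difference set to 0, a shift of 0.63, the counts were 1313 higher and 1216 lower, and higher genes made up 51.9% of calls in place of 38.5%. They were 50.2% of calls with a pseudocount of 5 FPKM and 23.0% with each library rescaled to the same sum. Differences below are given without a shift. Several widely expressed genes were nearly absent from the control table: Gapdh, Ppia and Rps6 were listed at 0 there, although the MII library, also of total RNA, had 7.12, 19.2 and 30.7 FPKM of them. An entry of 0 can therefore be a failed estimate, and no fold is given against one. Of the 956 higher genes, 110 were listed at 0 in the control, and 130 (13.6%) have a named pseudogene, against 3.94% of all members. Without the genes at 0 there were 846 higher genes, and without those with named pseudogenes there were 826. This count of pseudogenes is a minimum, because many copies bear other names. Beyond those marked below, Fabp3, Tdgf1, Bhmt, Gapdh, Rps6, Nlrp5, Obox3, Obox6, Zar1 and Dnmt3l have named pseudogenes, and their levels are uncertain to that extent.

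**Figure D1:**
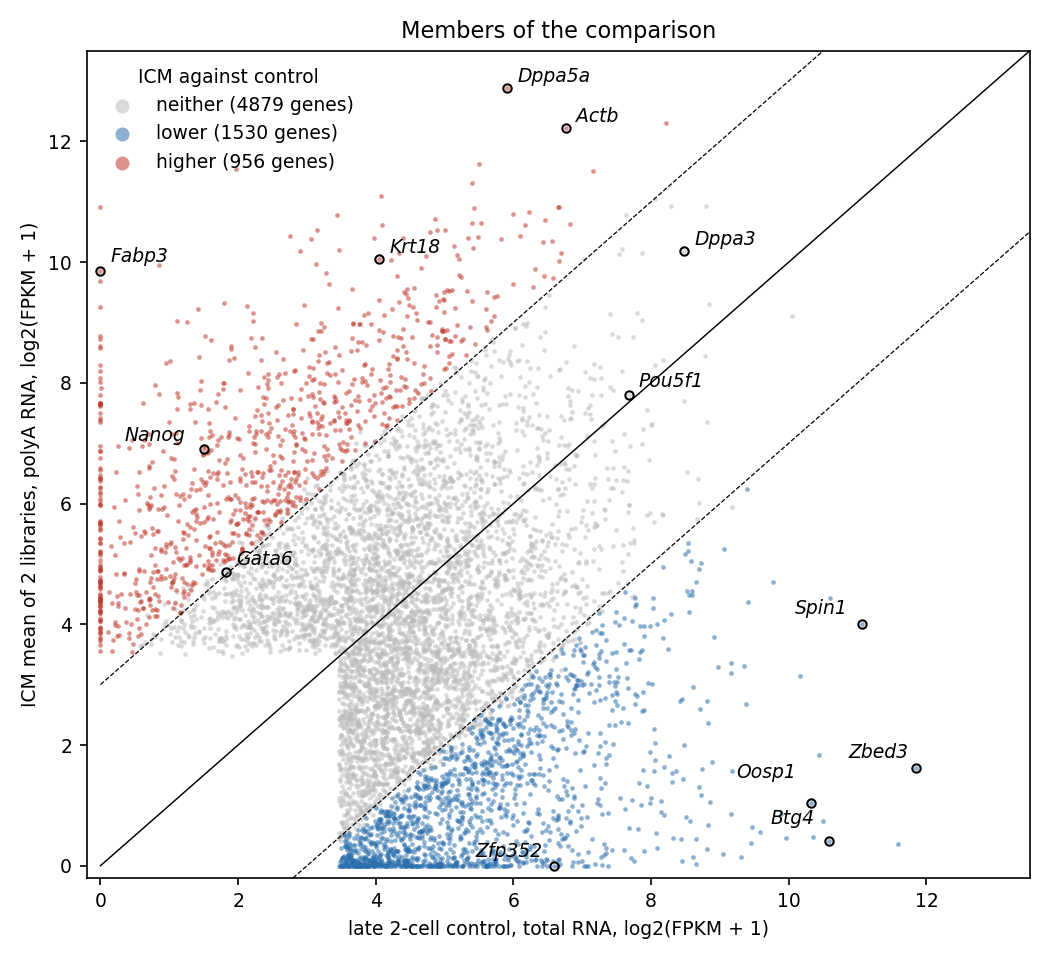
Each point is 1 of 7365 genes, placed by its log2(FPKM + 1) in the late 2-cell control (x axis) and in the mean of the 2 ICM libraries (y axis). The solid line marks equal levels and the dashed lines a difference of 3; red and blue points are the 956 higher and 1530 lower genes, and the column of points at 0 on the x axis holds genes listed at 0 in the control.

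The 4 marker genes set for this comparison gave a mixed picture. Dppa5a, an RNA-binding protein of pluripotent cells, had 59.0 FPKM in the control and 6736 and 8307 FPKM in the ICM libraries, a mean of 7521 ± 1111 FPKM (SD, n = 2). It had the highest ICM level of the pluripotency list and differed by 6.96 on the log2(FPKM + 1) scale. Krt18, a simple-epithelium keratin, had 15.6 FPKM in the control and 1116 and 991 FPKM in the ICM libraries, a difference of 5.99. Pou5f1, the Oct4 factor of pluripotency, had 203 FPKM in the control and 279.9 and 163 FPKM in the ICM libraries, so the control lay between the replicates. Gata6, a primitive endoderm factor, had 2.54 FPKM in the control and 24.5 and 32.1 FPKM in the ICM libraries. Its mean difference was 3.04, but replicate 1 fell short of 3, and it was not called. Dppa5a and Krt18 were thus far above the control in both libraries, while Pou5f1 overlapped it. Krt18 is also counted among the trophectoderm genes below, so its level does not mark the ICM in particular.

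Pluripotency genes gave calls on both sides. Of 42 listed genes, 31 were members; 6 were higher, 3 were lower and 22 were neither, and the median difference was 1.38. The higher share, 19.4%, stood against 13.0% of all members. The higher genes were Dppa5a, Nanog, Tdgf1, Utf1, Gdf3 and Spp1. All but Dppa5a were under 10 FPKM in the control and entered through the ICM alone, so these shares are not a like comparison. All 6 were also at least 8-fold above each of the 5 total RNA libraries, which include the control. Nanog, a homeodomain factor of the epiblast, had 1.84 FPKM in the control and 105 and 133 FPKM in the ICM libraries, and was listed at 0 in MII, PN5 and early 2-cell. It has named pseudogenes, so its level is uncertain. Tdgf1, the Nodal co-receptor Cripto, had 1.09 FPKM in the control and 107 and 61.0 FPKM in the ICM libraries. Spp1, the secreted protein osteopontin, had 0.731 FPKM in the control and 202 and 295 FPKM in the ICM libraries, a difference of 7.15. In all 3 genes the lower ICM library was far above the control.

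Several other members of the list stood below the control. Sox2, a partner of Oct4, had 10.1 FPKM in the control and 5.25 and 2.85 FPKM in the ICM libraries. Klf4 had 57.0 FPKM in the control and 8.64 and 11.5 FPKM in the ICM libraries, a difference of -2.40. Both factors were lower in each ICM library than in the control without reaching 8-fold. Lin28a, which blocks maturation of let-7 microRNAs, had 99.9 FPKM in the control and 4.50 and 2.90 FPKM in the ICM libraries. Gbx2, a homeobox gene, had 32.1 FPKM in the control and 0.639 and 0.450 FPKM in the ICM libraries. Both of these were among the lower calls, and the MII oocyte already held 48.5 and 92.8 FPKM of them. Among the most abundant genes of the list, Dppa3, which protects the early embryo's DNA methylation and has named pseudogenes, had 355 FPKM in the control and 1047 and 1264 FPKM in the ICM libraries. Fbxo15, a target of Oct4, had 172 FPKM in the control and 437 and 458 FPKM in the ICM libraries. Neither of them passed the size rule.

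Primitive endoderm genes were mostly low. Of 31 genes in the tables, 12 were members, with a median of 0.56. The 2 higher and 2 lower genes were 16.7% each, against 13.0% and 20.8% of all members. Lrp2, the endocytic receptor megalin, had 1.11 FPKM in the control and 31.8 and 23.2 FPKM in the ICM libraries. Sparc, a matrix protein, had 1.61 FPKM in the control and 35.4 and 24.9 FPKM in the ICM libraries. These were the higher pair. Gata4, which acts after Gata6 in the lineage, had 46.1 FPKM in the control and 2.51 and 0.581 FPKM in the ICM libraries. Srgn, the proteoglycan serglycin, had 54.8 FPKM in the control and 0.557 and 1.51 FPKM in the ICM libraries. Gata4 and Srgn were the lower pair and were present in MII at 12.1 and 24.7 FPKM. Sox17 and Pdgfra, early markers of the lineage, were not members, with 1.92 FPKM in the control and 2.54 and 1.42 FPKM in the ICM libraries for the first and 2.59 FPKM in the control and 5.03 and 3.97 FPKM in the ICM libraries for the second. Dab2, an endocytic adaptor, had 29.6 FPKM in the control and 119 and 129.7 FPKM in the ICM libraries, and Apoe had 19.3 FPKM in the control and 147 and 97.6 FPKM in the ICM libraries; neither was called.

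Trophectoderm genes, by contrast, were high in the libraries labelled ICM. Of 30 listed genes 22 were members, and 13 of them (59.1%, against 13.0% of all members) were higher, 1 was lower and 8 were neither, with a median difference of 3.71. Many of these members, Gata3, Krt8, Tspan8 and Fabp3 among them, were under 10 FPKM in the control and entered through the ICM alone. Listed genes low on both sides, such as Hand1, Krt7 and Krt19, were not counted. These shares are thus not a like comparison. The whole list summed to 227 FPKM in the control, 42.4 to 289 FPKM in the other total RNA libraries, and 4662 and 4037 FPKM in the ICM libraries. All 13 were also at least 8-fold above each of the 5 total RNA libraries. Gata3, a factor that promotes trophectoderm fate, had 2.60 FPKM in the control and 145 and 127 FPKM in the ICM libraries. Krt8, the partner of Krt18 in keratin filaments, had 3.76 FPKM in the control and 437 and 335 FPKM in the ICM libraries; it has named pseudogenes. Tspan8, a membrane tetraspanin, had 2.82 FPKM in the control and 383 and 293 FPKM in the ICM libraries. Id2, an inhibitor of basic helix-loop-helix factors, had 12.5 FPKM in the control and 563 and 440.3 FPKM in the ICM libraries. In each of these the ICM replicates were close together and far above the control. Fabp3, a fatty acid carrier, had 969.5 and 886 FPKM in the ICM and was listed at 0 in the control, in mTBE, in MII and in PN5.

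Cdx2, the defining factor of the trophectoderm, had 2.41 FPKM in the control and 31.4 and 22.1 FPKM in the ICM libraries. Eomes had 7.44 FPKM in the control and 24.7 and 21.7 FPKM in the ICM libraries, and Tfap2c had 29.0 FPKM in the control and 36.1 and 41.1 FPKM in the ICM libraries. These 3 were not called, and Tfap2c was similar on both sides. Esx1, a placental homeobox gene on the X chromosome, was the lower gene of the list, with 23.5 FPKM in the control and 0 and 0.177 FPKM in the ICM libraries. The labels name these libraries ICM. Of the defining trophectoderm markers Cdx2, Gata3, Krt8 and Krt18, none was at 0 in either ICM library; of the whole list, 1 gene, Duox2, was listed at 0 in both. The part of trophectoderm RNA in the ICM results was not tested. In bulk libraries fewer cells of a type and less RNA per cell cannot be told apart.

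**Figure D2:**
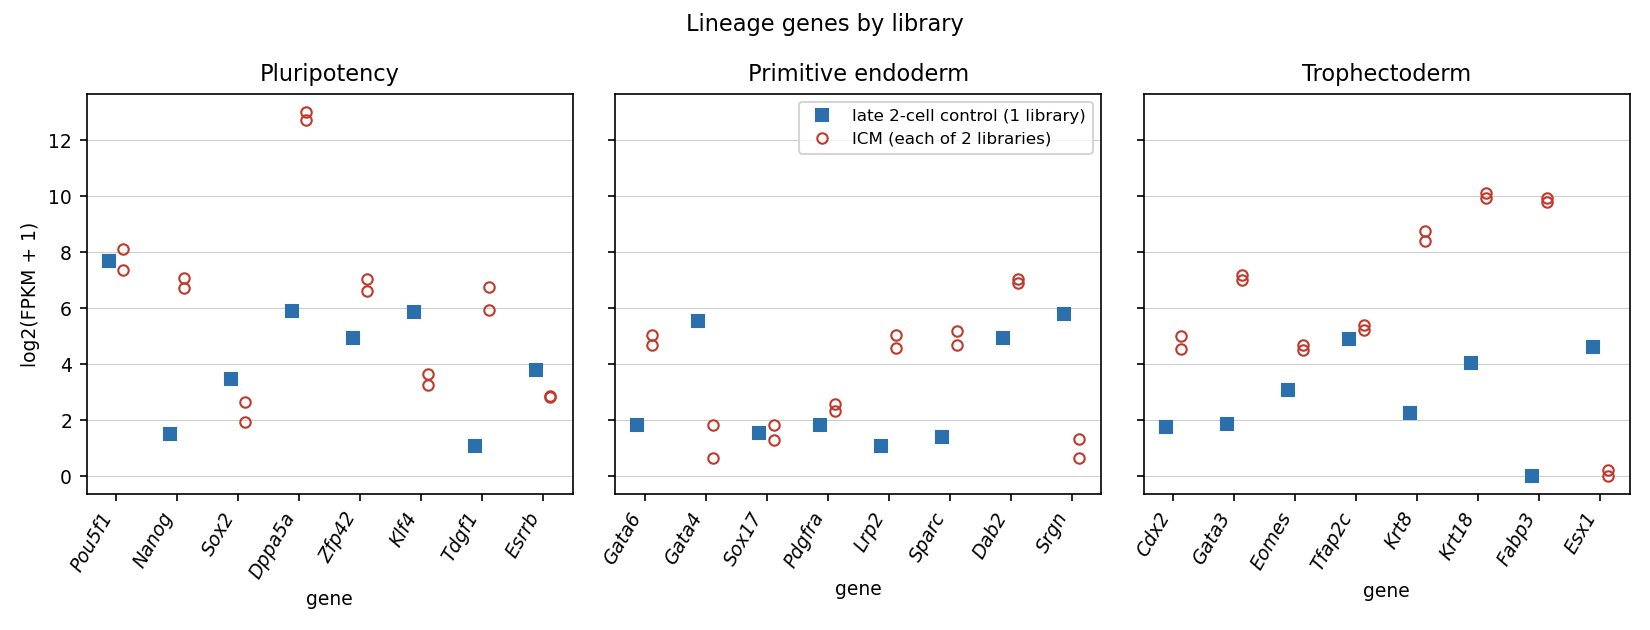
Levels of 8 genes from each of 3 lineage lists, chosen for display, as log2(FPKM + 1): the blue square is the late 2-cell control (1 library) and the open red circles are the 2 ICM libraries. Dppa5a, Nanog and Tdgf1 on the left, and Gata3, Krt8, Krt18 and Fabp3 on the right, lie far above the control, while Sox2, Klf4, Gata4, Srgn and Esx1 lie below it.

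Genes of epithelial junctions and keratins gave 6 higher of 25 members (24%, against 13.0% of all members), 1 lower and a median of 1.24. Besides Krt8 and Krt18, the higher genes were Epcam, Cldn4, Cldn7 and Perp. Krt8, Cldn4, Cldn7 and Perp were under 10 FPKM in the control and entered through the ICM alone, so the shares are not a like comparison. Epcam, an epithelial adhesion molecule, had 34.4 FPKM in the control and 645 and 565 FPKM in the ICM libraries. Cldn7, a tight junction protein, had 8.75 FPKM in the control and 317 and 323 FPKM in the ICM libraries. Both ICM libraries exceeded the control by over an order of magnitude for these genes. E-cadherin, Cdh1, which joins blastomeres from compaction on, had 55.9 FPKM in the control and 52.9 and 40.5 FPKM in the ICM libraries, slightly below the control in both. Pkp4, an armadillo protein of junctions, was the lower gene, with 85.6 FPKM in the control and 7.23 and 4.29 FPKM in the ICM libraries; its call was lost when the median difference was set to 0.

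Most markers of cumulus, granulosa, sperm, fibroblast and blood cells, which could have been collected with the embryos, were low. Of 20 cumulus and granulosa cell genes, 2 were members and none was called; the list summed to 84.1 FPKM in the control and to 41.3 and 50.3 FPKM in the ICM, of which Serpine2 alone gave 49.5, 33.5 and 40.1 FPKM. The 2 members were Serpine2 and Amhr2. Amhr2 had 16.7 FPKM in the control and 6.64 and 9.13 FPKM in the ICM libraries, and was listed at 0 in MII. Fshr, Lhcgr and Hsd3b1 were listed at 0 in all 3 libraries, and 13 of the 20 were at 0 in both ICM libraries. For sperm, 1 of 15 genes was a member, Odf2, with 81.7 FPKM in the control and 16.2 and 6.92 FPKM in the ICM libraries, and the protamine gene Prm1 was listed at 0 in all 3 libraries. Of 17 fibroblast and blood genes 1 was a member, Pecam1, with 26.7 FPKM in the control and 7.80 and 6.73 FPKM in the ICM libraries, and 6 were at 0 in both ICM libraries, Col3a1, Hbb-b1 and Hbb-b2 among them. Of 9 genes of mural trophoblast giant cells, 6 were at 0 in both ICM libraries, the lactogen gene Prl3d1 among them. Giant cells arise later than these blastocysts, so the zeros say nothing on trophectoderm, whose genes are described above. Plet1 was the exception, with 0.386 FPKM in the control and 44.6 and 50.7 FPKM in the ICM libraries.

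Most transcripts that mark the 2-cell stage were low in the ICM. Of 51 listed genes in the tables, 37 were members, and 28 (75.7%, against 20.8% of all members) were lower. None was higher, and the median was -4.04. Every member of this list had 10 FPKM or more in the control, and the list was written with earlier results known. Its share is thus not a like comparison with that of all members. The summed level was 1762 FPKM in the control and 493 and 624 FPKM in the ICM. In 24 of the 28 the MII oocyte had under 1 FPKM, so these RNAs were listed as low in the MII library and again in the ICM. Zfp352, a zinc finger gene derived from a retrotransposon, had 95.7 FPKM in the control and was listed at 0 in both ICM libraries. Zscan4d, of the Zscan4 family, had 12.8 FPKM in the control and was also listed at 0 in both. Gm13078, of the Pramel family, had 69.6 FPKM in the control and 0.0614 and 0 FPKM in the ICM libraries. Slc34a2, a phosphate transporter, had 216 FPKM in the control and 21.3 and 16.3 FPKM in the ICM libraries, and its call was lost against mTBE and with the median set to 0.

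A few 2-cell genes kept high levels. Alppl2, an alkaline phosphatase, had 138 FPKM in the control and 91.2 and 246 FPKM in the ICM libraries, and the control lay between the replicates. Trim43a had 57.5 FPKM in the control and 229 and 206 FPKM in the ICM libraries, while its relative Trim43b had 106 FPKM in the control and 21.4 and 22.8 FPKM in the ICM libraries. Trim43a was above the control in both ICM libraries and Trim43b below it, neither by 8-fold. Many genes of this list belong to clusters of near-identical copies, and how reads were shared among copies is not given in the sources used here, so single values are uncertain.

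The Obox homeobox family, which includes stored and embryonic members, had 4 members in the comparison, 3 of them lower (75%, against 20.8% of all members). All 4 had 10 FPKM or more in the control, so the shares are not a like comparison. Obox3, with 0.353 FPKM in MII, had 88.7 FPKM in the control and was listed at 0 in both ICM libraries. Obox5, with 299 FPKM in MII, had 414 FPKM in the control and 0.0527 and 2.88 FPKM in the ICM libraries. Obox6 had 72.1 FPKM in the control and 11.0 and 26.8 FPKM in the ICM libraries and was not called. Stored and newly made Obox RNAs were both low in the ICM, apart from Obox6.

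Most lower genes were also present in the MII oocyte, as were most genes of the control. Of the 1530, 1168 (76.3%) had 10 FPKM or more in MII, 226 had 1 to 10 FPKM and 136 had under 1 FPKM. Among the 5776 members at 10 FPKM or more in the control, 69.3% had 10 FPKM or more in MII. Presence in MII does not show that the RNA in the control was the stored one: the median of the lower genes was 27.9 FPKM in MII, 39.1 in PN5, 18.9 in early 2-cell and 39.8 in the control. Both ICM libraries were under 1 FPKM for 798 of the 1530, and 696 (45.5%) were at least 8-fold below each of the 5 total RNA libraries. Against the mTBE library in place of the control, 1355 of them met the same rule. The median lower gene had 0.723 and 0.651 FPKM in the ICM.

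**Figure D3:**
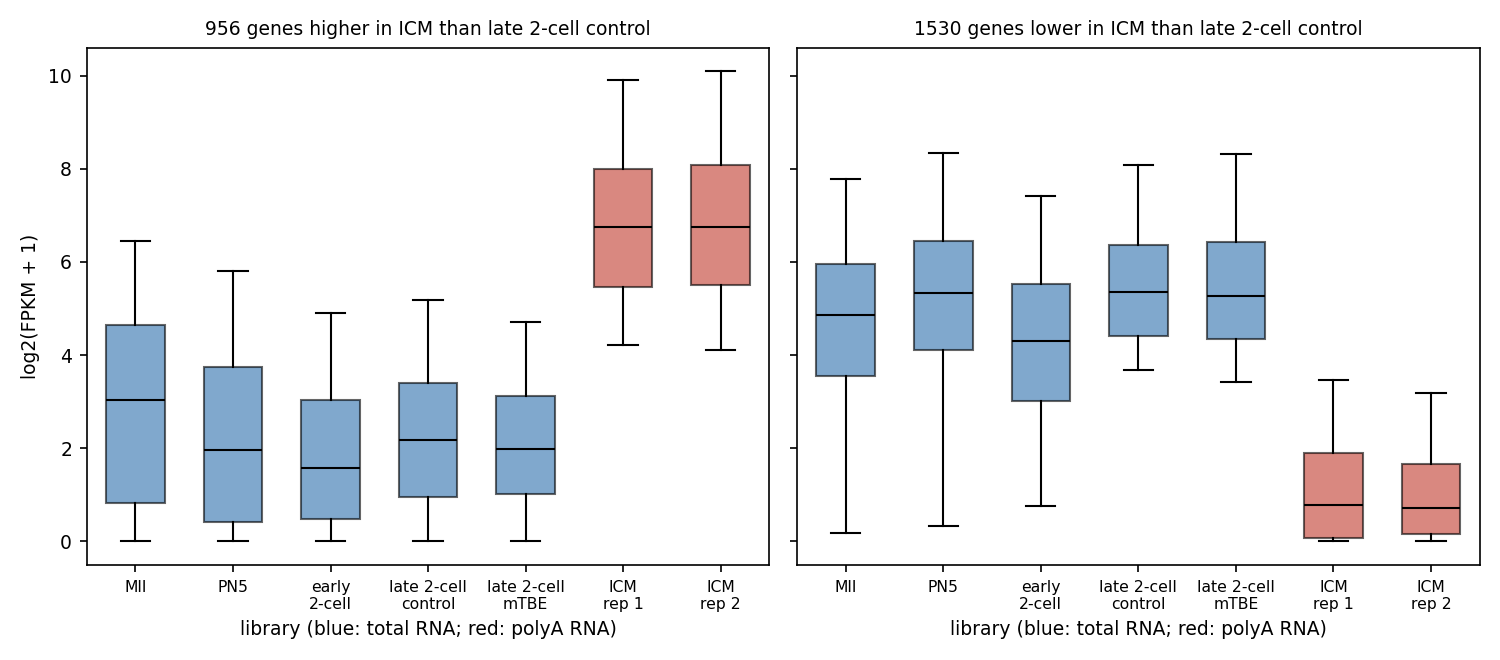
Boxes show log2(FPKM + 1) in each of 7 libraries for the 956 higher genes (left) and the 1530 lower genes (right); the line is the median, the box the middle 50% of genes and the whiskers the 5th to 95th percentile. The lower genes were already abundant in MII, with a median of 27.9 FPKM, and the higher genes had a median of 7.17 FPKM in MII and 3.52 FPKM in the control; tables were normalized separately.

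Proteins of the egg coat and secreted or abundant oocyte proteins were almost all low in the ICM. Of 28 members 27 (96.4%, against 20.8% of all members) were lower, with a median of -6.27. Every member had 10 FPKM or more in the control, so these shares are not a like comparison. The list summed to 9005 FPKM in the control and to 31.3 and 74.8 FPKM in the ICM. Oosp1, a secreted oocyte protein, had 1279.8 FPKM in the control and 0.0873 and 2.02 FPKM in the ICM libraries. Omt2b had 1438 FPKM in the control and 0.549 and 0.811 FPKM in the ICM libraries, a difference of -9.75. Bmp15, a growth factor by which the oocyte signals to cumulus cells, had 766 FPKM in the control and 0 and 0.950 FPKM in the ICM libraries. All of these were abundant in every total RNA library and close to 0 in the ICM. Tcl1, a cofactor of Akt kinase, had 1545 FPKM in the control and 16.8 and 24.4 FPKM in the ICM libraries; all 6 genes of the Tcl1 family in the list were lower. The 1 gene of the list that was not called was Zp3, which encodes the sperm receptor of the zona pellucida. Its level was 26.5 FPKM in the control and 10.8 and 23.4 FPKM in the ICM libraries, whereas the other zona genes Zp1 and Zp2 had at most 0.861 and 1.11 FPKM in the ICM.

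The Nlrp proteins and the subcortical maternal complex, a protein assembly under the egg surface that early cleavage requires, had 16 of 19 members lower. This share, 84.2%, stood against 20.8% of all members, and the median was -5.63. It is not a like comparison, because every member of the list had 10 FPKM or more in the control. Zbed3, a component of the complex, had the highest control level of any lower gene named here, with 3667 FPKM in the control and 0.334 and 3.81 FPKM in the ICM libraries. Nlrp5, known as Mater, had 61.3 FPKM in the control and 0 and 0.246 FPKM in the ICM libraries, and Padi6, a peptidylarginine deiminase, had 65.4 FPKM in the control and 0.467 and 2.61 FPKM in the ICM libraries. Tle6 had 41.1 FPKM in the control and 4.00 and 3.89 FPKM in the ICM libraries. These components were lower in both replicates. 2 further components did not follow. Ooep had 117 FPKM in the control and 108 and 116 FPKM in the ICM libraries, and Khdc3, known as Filia, had 16.4 FPKM in the control and 461 and 651 FPKM in the ICM libraries. Ooep was close to the control, and Khdc3 was higher by 4.98 on the log2 scale. Genes named Nlrp4 differed likewise: Nlrp4f had 251 FPKM in the control and 2.78 and 2.64 FPKM in the ICM libraries, and Nlrp4c had 15.3 FPKM in the control and 25.5 and 23.5 FPKM in the ICM libraries. Nlrp genes are a family of close relatives, and their values are uncertain to that extent.

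Factors that store, deadenylate or decay maternal mRNA were lower in 17 of 26 members (65.4%, against 20.8% of all members). None was higher, and the median was -3.93. All 26 had 10 FPKM or more in the control, so here too the shares are not a like comparison. Btg4, the adaptor that brings the deadenylase to maternal mRNA, had 1529 FPKM in the control and 0 and 0.668 FPKM in the ICM libraries, a difference of -10.21. Cnot6l, a catalytic subunit of that deadenylase, had 134 FPKM in the control and 1.06 and 0.458 FPKM in the ICM libraries. Cnot7, another catalytic subunit, had 385 FPKM in the control and 24.9 and 18.0 FPKM in the ICM libraries. Zar1 and Dazl, which bind stored mRNA, had 101 and 73.5 FPKM in the control and under 1 FPKM in both ICM libraries. Cnot6 and Cnot8, further catalytic subunits, had 31.8 FPKM in the control and 8.84 and 6.44 FPKM in the ICM libraries for the first and 145 FPKM in the control and 49.2 and 47.5 FPKM in the ICM libraries for the second. Of the non-catalytic subunits, Cnot1 had 52.8 FPKM in the control and 18.4 and 11.4 FPKM in the ICM libraries, and Cnot3 had 28.9 FPKM in the control and 8.97 and 6.92 FPKM in the ICM libraries. All 4 were below the control without reaching 8-fold in both replicates. Cnot2 had 49.6 FPKM in the control and 48.6 and 49.8 FPKM in the ICM libraries, with the control between the replicates.

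Eggs use special forms of many common proteins, and 23 pairs of an egg form and a general form were compared. The pairs and their names were chosen with earlier results known. In most pairs MII held more of the egg form. It held more of the general form in the pairs of Taf4b, Tbpl2, Kpna7, Aurkc, Cox6b2, Fbxo43, Cdc25b and Rpl39l. The name egg form does not mean that the gene is restricted to the egg. In the control the egg form exceeded the general form in 14 pairs; in both ICM libraries the general form exceeded the egg form in 20 pairs and the egg form the general form in 1. In 12 pairs the order was reversed between the stages. Of 20 egg forms that were members 16 were lower, where 20.8% of all members were. All 20 had 10 FPKM or more in the control, so this is not a like comparison. Of 21 general forms that were members 3 were higher, 2 were lower and 16 were neither. In most pairs, therefore, the egg form was past the size rule and the general form was not.

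Ybx2, a protein that packages mRNA in germ cells, had 123 FPKM in the control and 2.71 and 3.72 FPKM in the ICM libraries, and its general relative Ybx1, which has named pseudogenes, had 96.7 FPKM in the control and 96.6 and 100.3 FPKM in the ICM libraries. Eif4e1b, an egg form of the cap-binding protein, had 462 FPKM in the control and 0.648 and 1.53 FPKM in the ICM libraries, and Eif4e had 83.1 FPKM in the control and 78.5 and 68.6 FPKM in the ICM libraries. In both pairs the general form was close to the control. Wee2, a meiotic Cdk1-inhibiting kinase, had 526 FPKM in the control and 0 and 0.276 FPKM in the ICM libraries, and Wee1 had 13.3 FPKM in the control and 10.4 and 7.15 FPKM in the ICM libraries. Npm2, which decondenses sperm chromatin, had 107 FPKM in the control and 0.0736 and 1.40 FPKM in the ICM libraries, and Npm1, a nucleolar protein, had 51.8 FPKM in the control and 588 and 506 FPKM in the ICM libraries. Cox6b2, a testis and egg form of a subunit of cytochrome oxidase, had 192 FPKM in the control and 5.85 and 4.44 FPKM in the ICM libraries, and Cox6b1 had 62.9 FPKM in the control and 1632 and 1912 FPKM in the ICM libraries. In the Npm and Cox6b pairs the general form also met the 8-fold rule in the other direction; the call of Npm1 was lost with libraries rescaled to the same sum.

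Other pairs did not follow this pattern. Taf4b, a germ-cell subunit of the general factor TFIID, had 51.6 FPKM in the control and 5.48 and 5.78 FPKM in the ICM libraries, and Taf4a had 61.9 FPKM in the control and 3.52 and 1.93 FPKM in the ICM libraries, so the general form was the lower one in the ICM. Rpl39l, an alternative ribosomal protein, had 20.0 FPKM in the control and 398 and 548 FPKM in the ICM libraries, and Rpl39, which has named pseudogenes, had 8.94 FPKM in the control and 916 and 673 FPKM in the ICM libraries. Both forms were higher in the ICM. For lactate dehydrogenase, Ldhb had 152 FPKM in the control and 0.212 and 3.29 FPKM in the ICM libraries, and Ldha had 16.8 FPKM in the control and 4.78 and 1.48 FPKM in the ICM libraries; both have named pseudogenes, and neither form was abundant in the ICM.

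**Figure D4:**
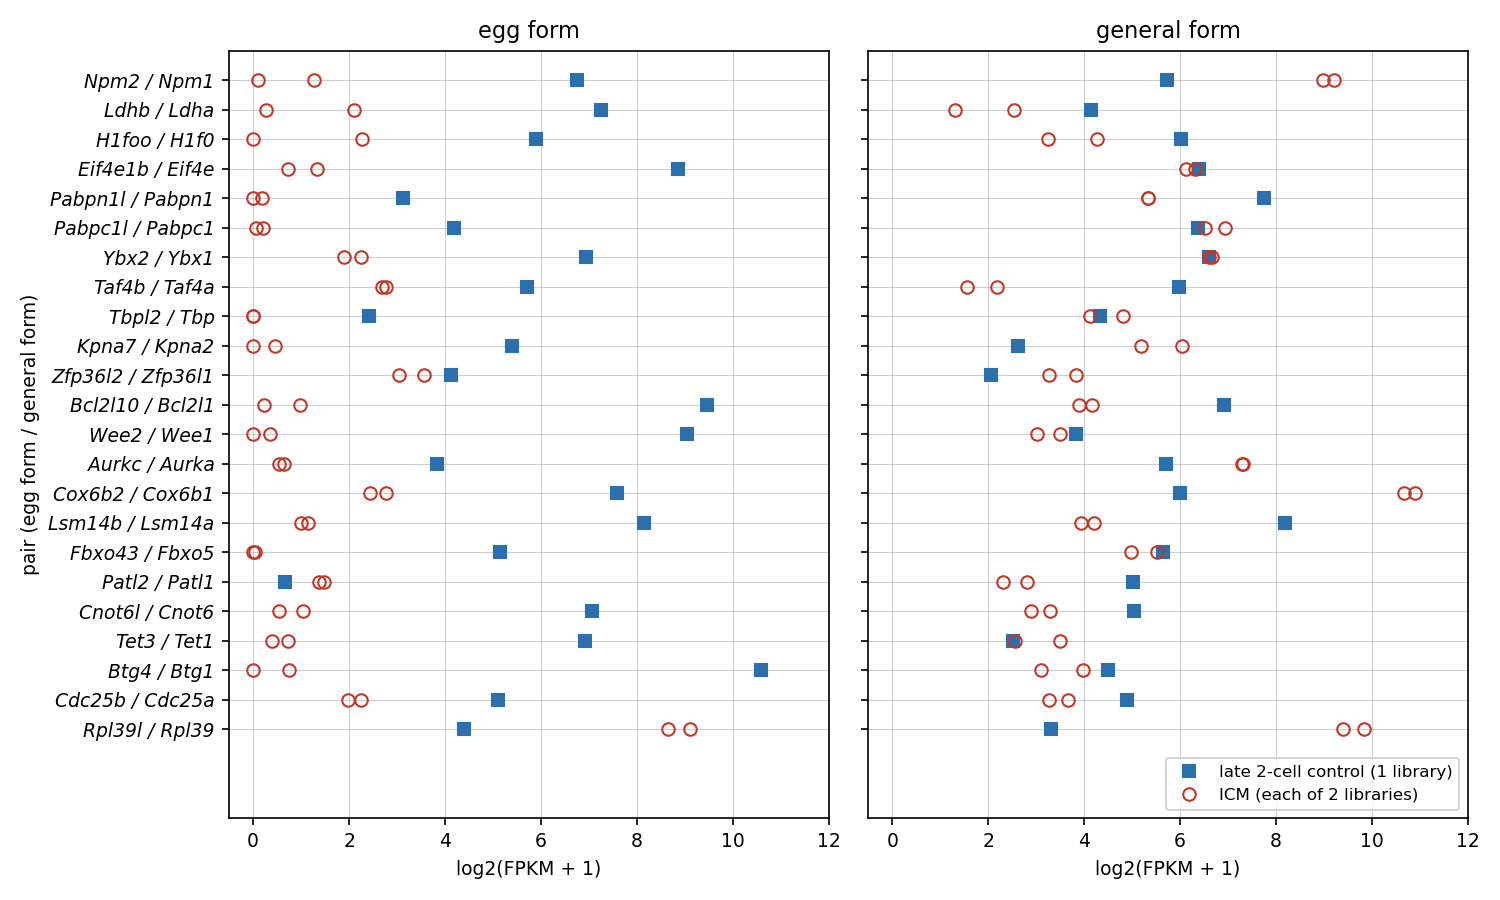
For 23 pairs, the level of the egg form (left) and of the general form (right) as log2(FPKM + 1); blue squares are the late 2-cell control and open red circles the 2 ICM libraries. Egg forms lie far left of their control in 16 pairs, whereas 16 of the 21 general forms that were members did not reach 8-fold in both ICM libraries.

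Promoter sequences of 2 pairs are shown because the egg form was lower in the ICM, the general form was not, and the windows differ widely in CG content. The windows are from RefSeq, build GRCm38.p6 (the expression values come from mm9), run from 250 bases before to 50 bases after the start site, and are printed in the direction of transcription. Capitals mark CG dinucleotides, searched as the letters CG, which read the same on both strands and cannot overlap. Of 32851 such windows of all genes 94.6% hold at least 1 CG, and the median is 7. Btg4 lies at chr9:51115751-51116050 on the plus strand and Btg1, a general antiproliferative relative, at chr10:96616751-96617050 on the plus strand.
Btg4: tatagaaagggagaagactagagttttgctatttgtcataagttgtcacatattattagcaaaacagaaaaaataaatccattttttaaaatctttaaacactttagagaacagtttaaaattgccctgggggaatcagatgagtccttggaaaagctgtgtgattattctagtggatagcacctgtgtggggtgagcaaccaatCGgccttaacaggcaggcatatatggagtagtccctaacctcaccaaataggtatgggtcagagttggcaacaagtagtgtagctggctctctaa
Btg1: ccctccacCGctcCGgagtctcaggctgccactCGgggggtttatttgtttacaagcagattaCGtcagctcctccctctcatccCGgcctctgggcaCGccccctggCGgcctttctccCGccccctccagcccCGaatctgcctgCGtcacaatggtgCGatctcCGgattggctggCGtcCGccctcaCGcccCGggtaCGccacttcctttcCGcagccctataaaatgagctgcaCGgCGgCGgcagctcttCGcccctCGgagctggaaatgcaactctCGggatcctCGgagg
Aurkc, a meiotic Aurora kinase, lies at chr7:6995135-6995434 on the plus strand, and Aurka, its mitotic relative, at chr2:172370521-172370820 on the minus strand.
Aurkc: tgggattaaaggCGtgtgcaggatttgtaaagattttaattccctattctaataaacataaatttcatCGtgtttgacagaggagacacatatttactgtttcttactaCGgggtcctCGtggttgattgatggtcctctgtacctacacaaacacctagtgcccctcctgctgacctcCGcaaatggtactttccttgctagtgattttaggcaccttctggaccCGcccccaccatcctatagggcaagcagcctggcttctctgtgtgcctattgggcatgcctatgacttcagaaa
Aurka: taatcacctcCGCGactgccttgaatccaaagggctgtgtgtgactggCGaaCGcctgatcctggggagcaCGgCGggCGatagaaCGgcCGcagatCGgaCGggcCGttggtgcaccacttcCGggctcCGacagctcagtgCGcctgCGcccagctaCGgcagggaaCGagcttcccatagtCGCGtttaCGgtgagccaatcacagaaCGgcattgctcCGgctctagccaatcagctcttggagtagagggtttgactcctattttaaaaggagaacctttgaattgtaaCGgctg
The Btg4 window held 1 CG, a count at or above that of 14.1% of all windows, and the Btg1 window held 25, at or above 83.1%. For Aurkc the count was 6 and for Aurka 24. Btg4 had at most 0.668 FPKM in the ICM against 7.62 and 14.7 FPKM for Btg1. Aurkc had 13.3 FPKM in the control and 0.556 and 0.444 FPKM in the ICM libraries, a call lost with the median difference set to 0 and with a pseudocount of 5 FPKM, and Aurka had 51.1 FPKM in the control and 156 and 158 FPKM in the ICM libraries. Only 11 of the 23 pairs (47.8%) have a single window for each form, which is too few for a statement on all pairs. Among those 11 the egg form had fewer CG in 8, more in 2 (Tet3 with Tet1 and Cdc25b with Cdc25a) and as many in 1 (Rpl39l with Rpl39). In Lsm14b and Lsm14a the counts were 40 and 41, although Lsm14b had 281 FPKM in the control and 1.20 and 1.01 FPKM in the ICM libraries and Lsm14a had 290.2 FPKM in the control and 17.4 and 14.2 FPKM in the ICM libraries. Both forms met the rule for lower genes, with nearly the same CG count.

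The largest lower differences of all belonged to RNAs that were also abundant in MII. C86187 had 3074 FPKM in the control and 0.0966 and 0.476 FPKM in the ICM libraries, a difference of -11.24. Next came Zbed3, Btg4 and Siah2, a ubiquitin ligase, which had 1308 FPKM in the control and 0.179 and 0.595 FPKM in the ICM libraries. Trim61 had 996 FPKM in the control and 0 and 0.759 FPKM in the ICM libraries. Bcl2l10, an egg form of the Bcl2 survival proteins, had 707 FPKM in the control and 0.171 and 0.963 FPKM in the ICM libraries. Parp12, an ADP-ribosyltransferase, had 399 FPKM in the control and 0 and 0.0408 FPKM in the ICM libraries. The 15 genes with the largest differences also included Omt2a, Omt2b, Oosp1, Gm1965, Oog3, Bmp15, Wee2 and Khdc1b. All 15 had 189 FPKM or more in MII and at most 3.81 FPKM in either ICM library.

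Genes of energy supply and protein synthesis led the higher side. Of 75 members of the oxidative phosphorylation list 68 (90.7%, against 13.0% of all members) were higher and none was lower, with a median of 4.79. Members under 10 FPKM in the control, Ndufa5 among them, entered through the ICM alone. These shares are thus not a like comparison, nor are those of the lists that follow. The list summed to 1599 FPKM in the control and to 33199 and 35486 FPKM in the ICM. Cox4i1, a core subunit of cytochrome oxidase, had 40.9 FPKM in the control and 1531 and 1689 FPKM in the ICM libraries. Cox6c had 45.2 FPKM in the control and 1521 and 1683 FPKM in the ICM libraries. Ndufa5, of complex I, had 408 and 438 FPKM in the ICM and was listed at 0 in the control, with 6.55 FPKM in MII. Of the 68 genes 41 also exceeded each of the 5 total RNA libraries by 8-fold, 6 were listed at 0 in the control and 8 have named pseudogenes. The 7 members that were not called were higher in both ICM libraries without reaching 8-fold in each; Sdha, of complex II, had 15.4 FPKM in the control and 65.3 and 47.3 FPKM in the ICM libraries, and Cox8a had 313 FPKM in the control and 1637 and 2249.8 FPKM in the ICM libraries.

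Ribosomal protein genes gave 67 higher of 70 members (95.7%, against 13.0% of all members), none lower and a median of 5.02. Those under 10 FPKM in the control, such as Rps6, entered through the ICM alone. Rpl41 had 297 FPKM in the control and 4451 and 5665 FPKM in the ICM libraries. Of the 67 higher genes, 54 have named pseudogenes and 9 were listed at 0 in the control. The list summed to 1349 FPKM in the control, 4055 FPKM in MII and 37684 and 41724 FPKM in the ICM. In 32 of the 67 genes the ICM exceeded each total RNA library by 8-fold. The part of library protocol and of pseudogene reads in these differences was not tested.

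Translation factors were less uniform. Of 44 members 16 were higher (36.4%, against 13.0% of all members), 28 were neither and none was lower. The median was 2.19. Eif3k, under 10 FPKM in the control, was a member through the ICM alone. Eif3k, a subunit of the initiation factor eIF3, had 9.98 FPKM in the control and 524 and 689 FPKM in the ICM libraries. Eef1a1, the elongation factor that delivers transfer RNA, had 99.3 FPKM in the control and 2117 and 1721 FPKM in the ICM libraries; it has named pseudogenes. Eif5a had 443 FPKM in the control and 1998 and 1906 FPKM in the ICM libraries and was not called. Of the 16 higher factors, 4 exceeded each of the 5 total RNA libraries by 8-fold. For Eef1a1 the MII library held 401 FPKM, above the control as well.

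The proteasome, the cell's main protease for ubiquitin-tagged proteins, was split by its parts. Of 38 members 26 were higher (68.4%, against 13.0% of all members) and 2 were lower, with a median of 3.90. Psmb5, under 10 FPKM in the control, was a member through the ICM alone. All 14 genes of the 20S core and all 6 ATPase genes of the 19S cap were higher, a grouping made after the values were seen, and their levels were 0.848 to 47.6 FPKM in the control and 55.2 to 1189 FPKM in the ICM. Of 14 non-ATPase cap genes, 5 were higher and 9 were neither. Psma7, a core subunit, had 17.7 FPKM in the control and 899.9 and 1189 FPKM in the ICM libraries. Psmb5, a catalytic subunit with named pseudogenes, had 6.70 FPKM in the control and 412 and 333 FPKM in the ICM libraries. The lower genes were both activators that replace the 19S cap: Psme3 (PA28 gamma) had 216 FPKM in the control and 22.1 and 19.2 FPKM in the ICM libraries, and Psme4 (PA200) had 233 FPKM in the control and 12.5 and 9.33 FPKM in the ICM libraries. The core genes and these 2 activators thus lay on opposite sides of the control. The call of Psme3 was lost with the median difference set to 0. Of the 26 higher genes 11 exceeded each total RNA library by 8-fold.

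Genes of the actin cytoskeleton were higher in 19 of 38 members (50%, against 13.0% of all members) and lower in none, with a median of 3.26. Actg1 and Tmsb10, under 10 FPKM in the control, were members through the ICM alone. Actb, cytoplasmic beta-actin, had 107 FPKM in the control and 5233 and 4325 FPKM in the ICM libraries; it has named pseudogenes. Actg1, gamma-actin, had 7.87 FPKM in the control and 1665 and 1304 FPKM in the ICM libraries. Pfn1, which loads actin monomers, had 70.5 FPKM in the control and 1337 and 1797 FPKM in the ICM libraries. Tmsb10, which sequesters them, had 5.74 FPKM in the control and 1042 and 1722 FPKM in the ICM libraries. The total RNA libraries ranged from 5.03 to 45.9 FPKM for Actg1, all far below the ICM, and 16 of the 19 genes exceeded each of them by 8-fold.

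Glycolysis genes were divided. Of 21 members 5 were higher (23.8%, against 13.0% of all members) and 3 were lower (14.3%, against 20.8%). The median was 1.82, which became -0.26 with libraries rescaled to the same sum. Aldoa, aldolase, had 35.3 FPKM in the control and 576 and 416 FPKM in the ICM libraries, and Pgam1 had 0.868 FPKM in the control and 125 and 106 FPKM in the ICM libraries; both have named pseudogenes. Gapdh had 142 and 103 FPKM in the ICM and was at 0 in the control. Pdk3, a kinase that holds back pyruvate dehydrogenase, was lower, with 33.7 FPKM in the control and 0 and 0.344 FPKM in the ICM libraries. Pdhb, a subunit of pyruvate dehydrogenase, had 31.8 FPKM in the control and 228 and 217 FPKM in the ICM libraries and was not called. Of the genes higher in this list 4 of 5 have named pseudogenes.

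**Figure D5:**
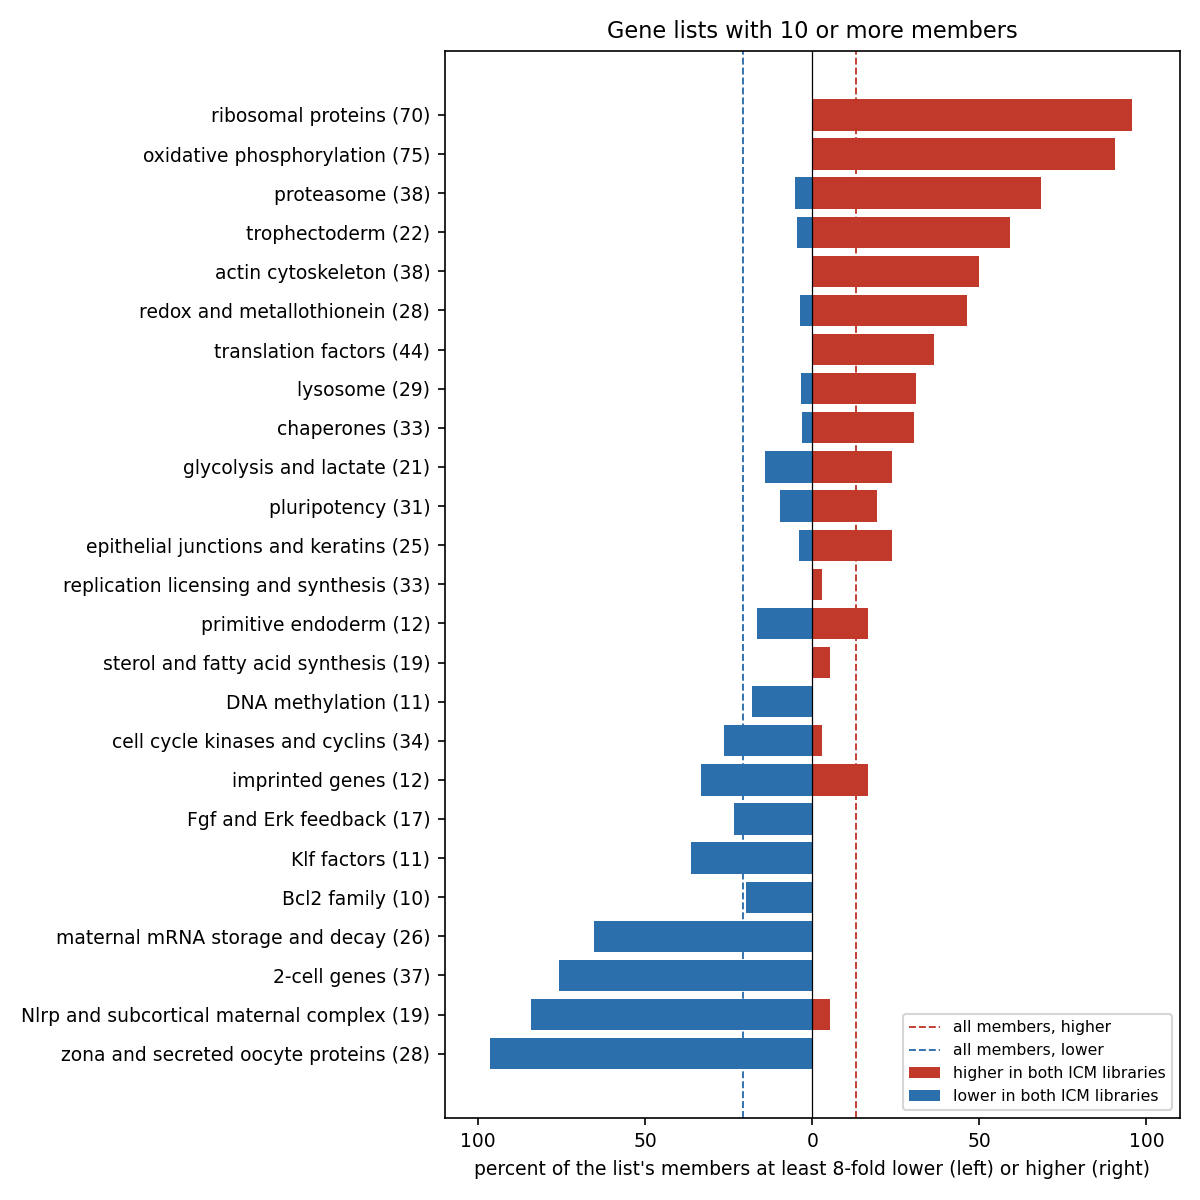
For each gene list with 10 or more members (number in brackets), the percentage of members at least 8-fold higher (red, to the right) or lower (blue, to the left) in both ICM libraries than in the control, ordered by median difference. Dashed lines give the same for all 7365 members, 13.0% higher and 20.8% lower; ribosomal proteins (95.7% higher) and zona and secreted oocyte proteins (96.4% lower) are the extremes.

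The 956 higher genes differed in their earlier course. In 553 (57.8%) each ICM library was at least 8-fold above each of the 5 total RNA libraries. The highest total RNA level was under 1 FPKM in 90 genes, 1 to 10 FPKM in 362 and 10 FPKM or more in 504. MII oocytes had 10 FPKM or more of 424 (44.4%), against 58.5% of the 4159 members at 10 FPKM or more in both ICM libraries. The higher genes had to be low in the control, so the shares were not compared by a test. Against mTBE in place of the control, 867 of the 956 met the rule. Among the 15 largest differences in the direction of the ICM were those of Ppia, Fabp3, Gm5148, AA467197, Ndufa3, Atp6v0c-ps2, Ndufa5, Rpl31-ps12, Apoc1, Rps6, Atp5g2, BC002163, Ly6a and Fbp2. Of the 15, 11 were listed at 0 in the control, and some are pseudogenes by name, so their rank says little. Ranked among the 430 higher genes that exceeded each total RNA library, had a control value above 0 and have no named pseudogene, a set chosen after the values were seen, AA467197 came first. AA467197 had 2.93 FPKM in the control and 2517 and 3423 FPKM in the ICM libraries, and was listed at 0 in MII, PN5 and early 2-cell. Fbp2, the muscle form of fructose bisphosphatase, had 1.16 FPKM in the control and 456 and 581 FPKM in the ICM libraries. H2afz, the histone variant H2A.Z whose RNA is polyadenylated, had 3.65 FPKM in the control and 566 and 569 FPKM in the ICM libraries. Crip1, a LIM protein, had 3.64 FPKM in the control and 400.5 and 639.7 FPKM in the ICM libraries.

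Genes near 0 in every total RNA library were also found, again picked after their values were seen. Apoc1, an apolipoprotein, had 364 and 399.8 FPKM in the ICM and at most 0.992 FPKM in any total RNA library. Bhmt, which makes methionine from betaine, had 0.542 FPKM in the control and 195 and 209 FPKM in the ICM libraries. Adh1, an alcohol dehydrogenase, had 86.6 and 90.0 FPKM in the ICM and was listed at 0 in the control. Ly6a, the surface protein Sca-1, had 232 and 282 FPKM in the ICM and was at 0 in the control. Replicates of Bhmt and Adh1 lay within 10% of each other.

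Signalling through Fgf and Erk separates epiblast from primitive endoderm. Of 17 members of its list 4 were lower (23.5%, near the 20.8% of all members) and none was higher, with a median of -1.20. The largest upward difference of the list, 3.02, was not past 8-fold in both replicates. Spry4, a feedback inhibitor, had 423 FPKM in the control and 1.47 and 1.04 FPKM in the ICM libraries, a difference of -7.56; it was abundant in MII, at 242 FPKM. Its relative Spry2, almost absent from MII at 0.0470 FPKM, had 22.2 FPKM in the control and 58.1 and 86.0 FPKM in the ICM libraries. The 2 inhibitors lay on opposite sides of the control, and Spry2 was not called. Spred1, a further inhibitor, had 20.8 FPKM in the control and 0.842 and 0.323 FPKM in the ICM libraries. The kinase Erk1, Mapk3, had 57.2 FPKM in the control and 3.09 and 3.35 FPKM in the ICM libraries. Ptpn11, the phosphatase Shp2, had 96.9 FPKM in the control and 7.97 and 6.35 FPKM in the ICM libraries, and its call was lost with the median set to 0. The ligand gene Fgf4 and the receptor genes Fgfr1 and Fgfr2 were not members; Fgf4 had 9.91 FPKM in the control and 9.23 and 4.94 FPKM in the ICM libraries, and Fgfr2 had 5.77 FPKM in the control and 13.3 and 8.41 FPKM in the ICM libraries.

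Krüppel-like factors gave 4 lower (36.4%, against 20.8% of all members) and no higher of 11 members, with a median of -1.38. Klf17, an oocyte and early embryo factor, had 196 FPKM in the control and 0.673 and 1.17 FPKM in the ICM libraries. Klf16 had 83.1 FPKM in the control and 4.61 and 4.24 FPKM in the ICM libraries, and Klf7 and Klf11 were also lower. Klf5, which acts in both blastocyst lineages, had 41.5 FPKM in the control and 113 and 183 FPKM in the ICM libraries, above the control in both replicates but under 8-fold. Klf17 was low in the ICM and Klf5 was not.

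Genes of DNA methylation were mostly within 8-fold: 2 of 11 members (18.2%, near the 20.8% of all members) were lower and none was higher. The median of 0.13 became -0.39 with libraries rescaled to the same sum and -0.43 or -1.79 with a filter of 5 or 20 FPKM. It became -0.07 without ICM replicate 1 and -0.98 without genes with named pseudogenes. Tet3, the oxidase that acts on the zygote's methylated DNA, had 119 FPKM in the control and 0.656 and 0.312 FPKM in the ICM libraries. Tet1, the oxidase of pluripotent cells, had 4.76 FPKM in the control and 10.3 and 4.89 FPKM in the ICM libraries and was not a member. Zfp57, which guards imprints, had 259 FPKM in the control and 23.7 and 17.7 FPKM in the ICM libraries, a call lost with the median set to 0. Dnmt1, the maintenance enzyme, had 47.4 FPKM in the control and 5.66 and 3.29 FPKM in the ICM libraries, just under 8-fold in 1 replicate. Dnmt3l had 53.9 FPKM in the control and 67.4 and 51.4 FPKM in the ICM libraries, with the control between the replicates.

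Of 12 imprinted genes that were members, 4 were lower (33.3%, against 20.8% of all members) and 2 were higher (16.7%, against 13.0%). The other 6 were neither, and the median was -0.93. Cdkn1c, a cyclin-dependent kinase inhibitor, had 37.7 FPKM in the control and 0.138 and 0.218 FPKM in the ICM libraries. Phlda2, which restrains placental growth, had 50.4 FPKM in the control and 2.08 and 2.31 FPKM in the ICM libraries, and Mest had 67.8 FPKM in the control and 3.60 and 3.34 FPKM in the ICM libraries. Slc38a4, an amino acid transporter, had 0.498 FPKM in the control and 41.3 and 45.1 FPKM in the ICM libraries. Snrpn, a splicing protein gene, had 10.2 FPKM in the control and 138 and 156 FPKM in the ICM libraries. Maternally and paternally expressed genes were found in the lower group, Cdkn1c and Mest respectively.

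In the Bcl2 family, 2 of 10 members (20%, near the 20.8% of all members) were lower and none was higher, with a median of -1.56. Besides Bcl2l10, the lower gene was Bcl2l11, the death activator Bim, with 28.5 FPKM in the control and 1.09 and 2.24 FPKM in the ICM libraries; this call was lost with the median set to 0. Bcl2l1, or Bcl-x, had 119.6 FPKM in the control and 17.1 and 13.8 FPKM in the ICM libraries, and Mcl1 had 66.2 FPKM in the control and 25.1 and 22.2 FPKM in the ICM libraries. Bax, a pore-forming death protein, had 13.2 FPKM in the control and 88.7 and 109.8 FPKM in the ICM libraries. Bcl2l1 and Mcl1 were below the control and Bax was above it, none of these 3 by 8-fold in both replicates. The largest upward difference of the family, 3.24 in another gene, was also not past 8-fold in both.

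Cell cycle kinases and cyclins included 9 lower (26.5%, against 20.8% of all members) and 1 higher of 34 members, with a median of -0.69. The lower genes were Wee2, Fbxo43, Aurkc, Plk4, Ccne2, Cdkn1c, Rb1, E2f1 and E2f5. E2f5 had 471 FPKM in the control and 3.56 and 1.04 FPKM in the ICM libraries, and E2f1 had 225 FPKM in the control and 1.86 and 1.29 FPKM in the ICM libraries. Rb1, the retinoblastoma protein that restrains E2f factors, had 71.8 FPKM in the control and 0.278 and 0 FPKM in the ICM libraries. Rb1 and both E2f genes were thus low in the ICM. Cdk4, a kinase of G1, was the higher gene, with 9.51 FPKM in the control and 219 and 189 FPKM in the ICM libraries. Mitotic genes were closer to the control: Ccna2 had 178 FPKM in the control and 97.1 and 68.1 FPKM in the ICM libraries, Plk1 had 41.3 FPKM in the control and 43.5 and 34.3 FPKM in the ICM libraries, and Birc5, or survivin, had 169 FPKM in the control and 532 and 599 FPKM in the ICM libraries.

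Replication licensing and DNA synthesis had almost no calls. Of 33 members 1 was higher (3.03%, against 13.0% of all members), none was lower, and the median was 0.87. Gins1, part of the replicative helicase, was the higher gene, with 5.14 FPKM in the control and 53.1 and 48.9 FPKM in the ICM libraries, and its call was lost with libraries rescaled to the same sum. Rrm2, a subunit of ribonucleotide reductase, had 60.6 FPKM in the control and 229 and 217 FPKM in the ICM libraries, and Orc6, of the origin recognition complex, had 138 FPKM in the control and 81.9 and 75.5 FPKM in the ICM libraries. Over all members 1236 genes were within 2-fold of the control in both ICM libraries.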

How the data were processed

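The authors deposited FPKM per gene symbol for all 7 RNA libraries used here. For the tools, the notes on processing by the submitters list TopHat2 2.1.1 and Cufflinks 2.1.1, with CASAVA 1.8 and the build mm9. How multi-mapped reads and strand were treated is not given in the sources used here, so near-identical, overlapping and antisense genes are uncertain. The ICM pair, the 3-library table (PN5, late 2-cell control and mTBE), MII and early 2-cell were normalized separately. Read depth is unknown. The value columns without a sample numbered 0. A further 109 samples were not used here.

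Rows sharing a symbol were summed. Differences were computed on log2(FPKM + 1), with a pseudocount of 1, in Python 3.11.15 with pandas 2.3.3 and numpy 2.4.6. The calculation was checked on simulated data. Members, 30 gene lists and 23 pairs were chosen with earlier results of these data known. The rule for names took the 15 largest differences in each direction, from each list up to 4 members of highest level and up to 2 of largest difference in each direction, all pair genes and the 4 markers. Any other gene named was picked from the lists for its known role or its value, after values were seen. A few genes that the rule names are not reported here. Genes with a named pseudogene were found by symbol in RefSeq. Alternatives covered pseudocount, filter, size rule, scaling, replicates, reference library (mTBE, or all 5 total RNA libraries), genes at 0 and pseudogenes. The last 3 (all 5 libraries, genes at 0, pseudogenes) were added after seeing the data.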

Additional observations from a re-analysis of the deposited data

How the results depend on the processing

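The counts of higher and lower genes were 956 and 1530. With a pseudocount of 5 FPKM they were 577 and 573, at a 4-fold rule 1570 and 2332, and at a 16-fold rule 508 and 721. With libraries rescaled to the same sum there were 885 higher and 2962 lower genes, over 10431 members. Against each of 5 total RNA libraries at once, they were 553 and 696. The other settings stayed within 1.5 times of both counts. Leaving out 1 ICM replicate gave 1057 to 1079 higher and 1584 to 1784 lower genes. In none of these settings was a gene called in the direction opposite to its call above (0 genes). Against the 5 total RNA libraries at once, a gene below the control was set against its lowest total RNA level, and a gene above it against its highest. The difference of a gene below the control could thus only rise or stay, and that of a gene above it only fall or stay. In this setting the median of the 2-cell list became 0.12, Esx1 0.12, Phlda2 0.14 and Slc34a2 3.71. The medians of the Bcl2, Klf, imprinted, Fgf and Erk, and cell cycle lists became 1.81, 0.95, 0.57, 0.45 and 0.05. The DNA methylation median became -0.55 there, and it and the glycolysis and sterol medians changed sign under the further settings named beside them. Of 132 named genes called, 123 kept the call with the median difference set to 0, 129 after rescaling, 130 against mTBE and 112 with a pseudocount of 5 FPKM. No paired analysis was possible because the control has 1 library. Depth is unknown, and the precision of low values, entries of 0 included, is limited by it.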

Other observations

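Lysosomal genes were higher in 9 of 29 members (31.0%, against 13.0% of all members), with a median of 2.17. Hexa, under 10 FPKM in the control, was a member through the ICM alone, so the shares are not a like comparison. Cd63, a membrane protein of late endosomes with named pseudogenes, had 34.5 FPKM in the control and 436 and 435 FPKM in the ICM libraries. Hexa, a lysosomal hexosaminidase, had 0.636 FPKM in the control and 101 and 92.4 FPKM in the ICM libraries. Psap, the precursor of the saposins, had 49.9 FPKM in the control and 519.7 and 513 FPKM in the ICM libraries, and its call was lost with libraries rescaled to the same sum. Not all proteases followed: Ctsh, cathepsin H, was lower, with 25.9 FPKM in the control and 1.77 and 1.57 FPKM in the ICM libraries, a call lost with the median set to 0 and with a pseudocount of 5 FPKM. Ctsl, cathepsin L, had 141 FPKM in the control and 215 and 226 FPKM in the ICM libraries and was not called. Ctsh was higher in MII, at 70.9 FPKM, where Ctsl had 0.917 FPKM.

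Chaperones were higher in 10 of 33 members (30.3%, against 13.0% of all members) and lower in 1, with a median of 2.00. Hspa8, under 10 FPKM in the control, was a member through the ICM alone, so the shares are not a like comparison. Hspa8, the constitutive Hsp70, had 7.33 FPKM in the control and 1301 and 1371 FPKM in the ICM libraries, and Hsp90aa1 had 19.2 FPKM in the control and 1177 and 1102 FPKM in the ICM libraries. Both were abundant in MII, at 166 and 388 FPKM, and low in the control. Of the 8 genes of the CCT chaperonin, which folds actin and tubulin, 5 were higher. Hspa2, a germ-cell Hsp70, was the lower gene, with 45.1 FPKM in the control and 1.89 and 2.61 FPKM in the ICM libraries.

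Redox genes and metallothioneins were higher in 13 of 28 members (46.4%, against 13.0% of all members), with a median of 2.90. Gpx4, under 10 FPKM in the control, was a member through the ICM alone, so the shares are not a like comparison. Mt1, a metal-binding metallothionein, had 142 FPKM in the control and 3275 and 2544 FPKM in the ICM libraries, and was listed at 0 in MII and PN5. Gsto1, a glutathione transferase, had 10.0 FPKM in the control and 1026 and 1314 FPKM in the ICM libraries. Gpx4, which protects membrane lipids and has named pseudogenes, had 2.37 FPKM in the control and 120.5 and 152 FPKM in the ICM libraries, whereas the secreted Gpx3 had 69.0 FPKM in the control and 6.63 and 6.58 FPKM in the ICM libraries. Glutathione peroxidases thus lay on both sides of the control; Gpx3 lost its call against mTBE and with the median set to 0.

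Sterol and fatty acid synthesis was close to the control. Of 19 members 1 was higher, none was lower, and the median of 0.20 became -0.62 with libraries rescaled to the same sum, -0.11 with a filter of 5 FPKM and -0.35 without ICM replicate 1. Pmvk, of the mevalonate pathway, had 1.62 FPKM in the control and 58.9 and 53.3 FPKM in the ICM libraries. Sqle, squalene epoxidase, had 69.2 FPKM in the control and 9.79 and 11.5 FPKM in the ICM libraries, and Insig1 had 133 FPKM in the control and 74.5 and 55.6 FPKM in the ICM libraries. These 2 were below the control in both ICM libraries without reaching 8-fold.

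In 96 of the 956 higher genes the MII oocyte also exceeded the control by 8-fold, and 44 of these were neither listed at 0 in the control nor have a named pseudogene. Glrx, glutaredoxin, was one, with 12.7 FPKM in the control and 524 and 482 FPKM in the ICM libraries and 152 FPKM in MII. In 136 lower genes MII had under 1 FPKM, so by the listed values the control stood above both the oocyte and the ICM. Ficd, an AMP-transferase of the endoplasmic reticulum, was one, with 98.4 FPKM in the control and 1.27 and 1.17 FPKM in the ICM libraries and 0.603 FPKM in MII. Sp6, a zinc finger factor, was another, with 47.9 FPKM in the control and 0.350 and 0.273 FPKM in the ICM libraries and 0 FPKM in MII. These genes were named after their values were seen. An entry of 0 in MII can be a failed estimate too. Nlrp4g, also among the 136, was listed at 0 in MII and early 2-cell, with 257 FPKM in PN5 and 94.0 FPKM in the control.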
